A study of Mus musculus with 9 samples.

Results

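The vacuolar proton pump (V-ATPase) and the genes that help osteoclasts acidify bone were examined in mouse mandibles. The members were every row of the count table whose symbol begins with Atp6v0, Atp6v1 or Atp6ap, together with *Tcirg1*, *Clcn7*, *Ostm1*, *Car2*, *Slc4a2* and *Snx10*. This gave 33 of 27179 rows, of which 29 had enough reads to be tested among 16329 tested genes. Poly(A) RNA came from whole mandibles with teeth of male C57BL/6 mice aged 6 months, 5 of them wild type (WT) and 4 labelled FcgRIIB-/-, a deletion of the inhibitory Fc receptor that serves as a model of lupus. The tissue is a mixture, to which bone cells, marrow, muscle, epithelium and tooth cells can all contribute reads. Totals lay between 21453880 and 28991631 counts per mouse. *Fcgr2b*, the targeted gene, ranged from 442 to 954 counts in WT and from 562 to 757 in libraries labelled FcgRIIB-/- (log2 fold change 0.21 with a standard error, SE, of 0.20, adjusted p = 0.442 by the quasi-likelihood test of edgeR, which is used for single genes throughout). It was not lower there, so the groups are named by their labels throughout.

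The V-ATPase is a rotary enzyme made of a cytosolic V1 sector, which hydrolyzes ATP, and a membrane V0 sector, through which protons pass. Every cell uses it to acidify lysosomes and endosomes. Several subunits exist as isoforms, and in osteoclasts the a3 isoform, encoded by *Tcirg1*, and the d2 isoform, encoded by *Atp6v0d2*, are prominent in the pump of the ruffled border, the folded membrane that faces the bone. Carbonic anhydrase II (*Car2*) supplies the protons, the chloride-proton exchanger *Clcn7* with its partner *Ostm1* balances the charge, and the anion exchanger *Slc4a2* removes bicarbonate. In humans, loss of the counterpart of *Tcirg1*, *Clcn7*, *Ostm1*, *Car2* or *Snx10* causes osteopetrosis, a failure of bone resorption.

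Of the 29 tested members, 5 were higher and 6 were lower in the libraries labelled FcgRIIB-/- (threshold 0.05 after adjustment over the whole table). In the table as a whole 14.0% of tested genes were higher and 19.3% were lower, so the number of members past the threshold was near the background. Members had a median log2 fold change of 0.00, and all tested genes one of 0.01. Counts in each direction are given by role, and the difference between roles was not tested. Of the 8 V1 subunits expressed in most tissues 4 were higher and none was lower. The 2 osteoclast-type isoforms and the 5 partners gave 3 lower genes and none higher. The 4 tested isoforms restricted to other tissues likewise gave 2 lower genes and none higher. Among the osteoclast-type isoforms and partners *Atp6v0d2* and *Car2* fell most, and *Tcirg1* did not pass the test.

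**Figure D1:**
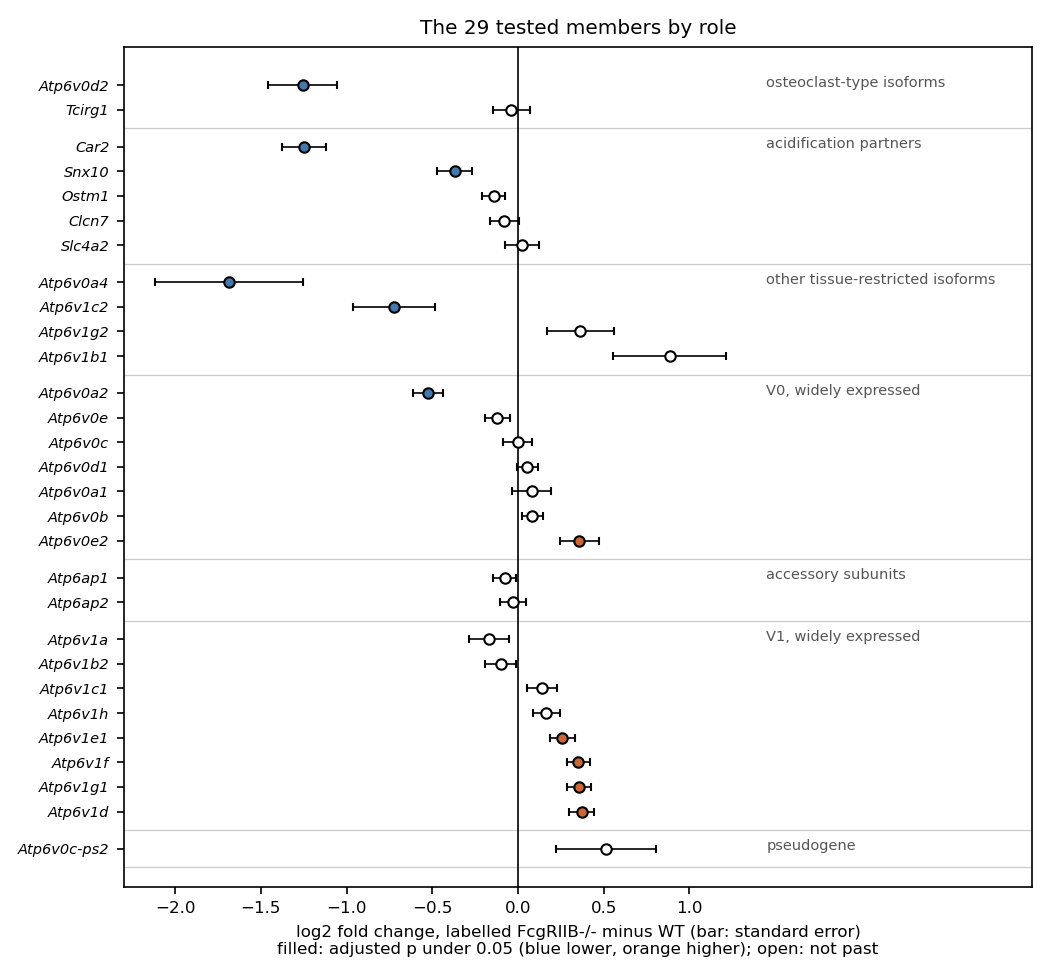
The log2 fold change (labelled FcgRIIB-/- minus WT) of each of the 29 tested members is drawn by role, with bars for the standard error and filled points for an adjusted p under 0.05. Filled points on the left are 6 lower members, led by Atp6v0a4 at -1.69, Atp6v0d2 at -1.26 and Car2 at -1.25, and filled points on the right are 5 higher members, 4 of them V1 subunits.

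Of the osteoclast-type isoforms, *Atp6v0d2* fell and *Tcirg1* did not pass the test. *Atp6v0d2* (gene identifier 242341, chromosome 4 of mm10 from 19876838 to 19922566), the d subunit isoform also known for its part in osteoclast fusion, was at 18.4, 27.6, 20.8, 20.9 and 34.4 CPM (counts scaled to a common, normalized library size) in WT replicates 1 to 5. It was at 12.5, 10.8, 9.70 and 7.70 CPM in replicates 1 to 4 of the libraries labelled FcgRIIB-/-. No mouse labelled FcgRIIB-/- reached the lowest WT mouse, and WT replicate 5 was highest. The level fell from 24.4 ± 6.53 (SD, n = 5) to 10.2 ± 2.02 (SD, n = 4) CPM, a log2 fold change of -1.26 (SE 0.20, edgeR adjusted p = 0.00163). In a homogenate of whole mandible, fewer cells of a type and less RNA per cell cannot be told apart. A list of 11 osteoclast markers moved in the same direction, with 9 lower and none higher, a median log2 fold change of -1.19 and a sum between 973 and 1363 CPM in WT and between 352 and 597 CPM in the libraries labelled FcgRIIB-/-. Each marker of this list was detected. The part of osteoclast content in the level of *Atp6v0d2* was not tested. The ratio to *Ctsk* given further on cannot separate fewer cells from less RNA per cell, as *Ctsk* fell too.

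*Tcirg1* (gene identifier 27060, chromosome 19 from 3896050 to 3907133), the a3 subunit of the osteoclast pump that is also made in macrophages and T cells, was at 74.4, 89.7, 81.1, 68.5 and 72.1 CPM in WT replicates 1 to 5. In replicates 1 to 4 labelled FcgRIIB-/- it was at 65.3, 69.9, 73.7 and 91.4 CPM. The groups overlapped over nearly their whole range, and the highest mouse of all was replicate 4 of the libraries labelled FcgRIIB-/-. The log2 fold change was -0.04 (SE 0.11, edgeR adjusted p = 0.801), and its sign turned without WT replicate 2 (0.04) or without replicate 1 of the libraries labelled FcgRIIB-/- (0.02). The ratio of both genes in each library was chosen after their values were seen and is given as a description. The log2 ratio of *Atp6v0d2* to *Tcirg1* counts averaged -1.69 ± 0.376 in WT (SD, n = 5) against -2.89 ± 0.502 in libraries labelled FcgRIIB-/- (SD, n = 4), without overlap.

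**Figure D2:**
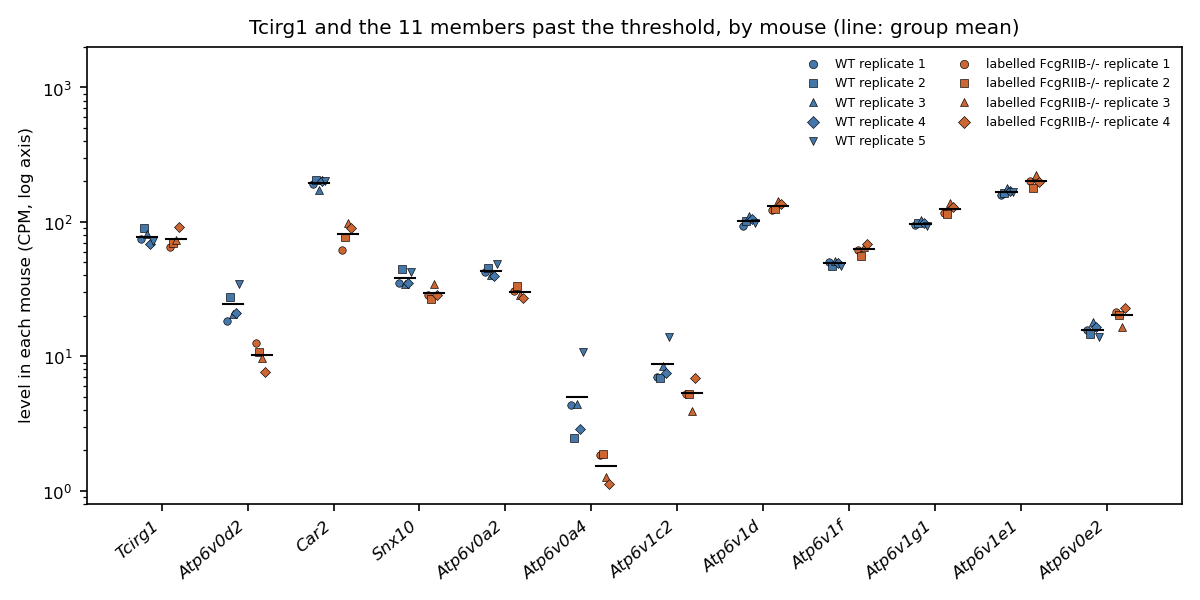
The level of Tcirg1 and of the 11 members past the threshold is plotted for each mouse in CPM on a log axis, with WT in blue, libraries labelled FcgRIIB-/- in orange, a symbol for each replicate number and a line at the group mean. Atp6v0d2 and Car2 are separated by the widest gaps, Tcirg1 overlaps, and WT replicate 5 stands above the other WT mice in Atp6v0a4 and Atp6v1c2.

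Among the partners, *Car2* (gene identifier 12349, chromosome 3 from 14886269 to 14900770) fell most. It was at 191, 206, 173, 200.3 and 203 CPM in WT replicates 1 to 5 and at 61.6, 76.8, 99.0 and 90.6 CPM in replicates 1 to 4 labelled FcgRIIB-/-. The groups were far apart, with the lowest WT mouse well above the highest mouse labelled FcgRIIB-/-. The mean fell from 195 ± 13.5 (SD, n = 5) to 82.0 ± 16.4 (SD, n = 4) CPM (log2 fold change -1.25, SE 0.13, edgeR adjusted p = 2.09e-04). Carbonic anhydrase II is abundant in osteoclasts, in red cells and their precursors and in several epithelia. Of 11 erythroid markers, 10 were lower and none was higher, with a median log2 fold change of -4.14 and a sum that lay between 574 and 900 CPM in WT and between 110 and 166 CPM in the libraries labelled FcgRIIB-/-. Each was detected in the table, and the part of erythroid cells in the fall of *Car2* was not tested.

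*Snx10* (chromosome 6 from 51523900 to 51590679), a sorting nexin that acts in vesicle traffic to the ruffled border, was at 35.2, 44.4, 34.8, 35.4 and 42.4 CPM in WT replicates 1 to 5 and at 28.8, 26.9, 34.5 and 28.7 CPM in replicates 1 to 4 labelled FcgRIIB-/-. The groups did not overlap, but replicate 3 of the second group lay just under the lowest WT mouse. The log2 fold change was -0.37 (SE 0.10, edgeR adjusted p = 0.0198). It did not pass without WT replicate 2 (adjusted p = 0.0512), without replicate 1 (0.0504) or without replicate 2 (0.0562) of the libraries labelled FcgRIIB-/-, also from edgeR. *Snx10* overlaps the pseudogene *Gm52883* in position, so reads may be shared. All 11 neutrophil markers were lower as well, with a sum between 1156 and 3536 CPM in WT and between 143 and 424 CPM in the libraries labelled FcgRIIB-/-, and their part in *Snx10* was not tested.

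The remaining partners did not pass. *Clcn7* averaged 57.0 ± 4.49 CPM (SD, n = 5) and 54.0 ± 5.61 CPM (SD, n = 4) in WT and in libraries labelled FcgRIIB-/-, with a log2 fold change of -0.08 (SE 0.08). *Ostm1*, the membrane protein that stabilizes the *Clcn7* exchanger, was at 37.8 ± 1.31 and 34.2 ± 2.59 CPM with a log2 fold change of -0.14 (edgeR adjusted p = 0.121), and it passed as lower only without replicate 3 of the libraries labelled FcgRIIB-/- (log2 fold change -0.19, adjusted p = 0.0442). *Slc4a2* was at 122 ± 18.1 and 125 ± 2.41 CPM with a log2 fold change of 0.02 (SE 0.10). Its spread was mostly within WT, where mice ranged from 104 to 144 CPM.

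To compare these genes with a marker of the mature osteoclast, the count of each was divided by that of *Ctsk* in the same library, so that library size cancels. *Ctsk* encodes cathepsin K, the protease that degrades bone collagen, and fell from 471 ± 67.4 (SD, n = 5) to 231 ± 35.9 (SD, n = 4) CPM. The log2 ratio of *Atp6v0d2* to *Ctsk* was -4.29 ± 0.198 in WT and -4.51 ± 0.0823 in the libraries labelled FcgRIIB-/- (difference -0.21, exact permutation p = 0.0873, 0.102 after adjustment over the 7 ratios to *Ctsk*). That of *Car2* was -1.27 ± 0.156 and -1.501 ± 0.489 (difference -0.23, exact permutation p = 0.389, adjusted p = 0.389). The *Car2* difference was -0.02 without replicate 1 and -0.40 without replicate 4 of the libraries labelled FcgRIIB-/-. For both genes the groups overlapped. As *Ctsk* fell too, these ratios cannot separate fewer cells from less RNA per cell. Without WT replicate 1 the *Atp6v0d2* ratio passed as lower (difference -0.28, adjusted exact permutation p = 0.0333).

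The other 5 ratios were higher in every mouse labelled FcgRIIB-/- than in every WT mouse. The difference in log2 ratio was 1.07 for *Slc4a2*, 0.99 for *Tcirg1*, 0.95 for *Clcn7*, 0.89 for *Ostm1* and 0.66 for *Snx10*. The fall of *Ctsk* itself (log2 fold change -1.03) enters each of these ratios, so they are given as a description. *Tcirg1* had 17.3, 16.6, 19.4, 16.5 and 13.2 reads per 100 reads of *Ctsk* in WT replicates 1 to 5 and 24.2, 29.7, 31.5 and 50.04 in replicates 1 to 4 labelled FcgRIIB-/-. Replicate 4 of the second group had the lowest *Ctsk* level in the series, 183 CPM, and the highest value of each of the 5 ratios.

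**Figure D3:**
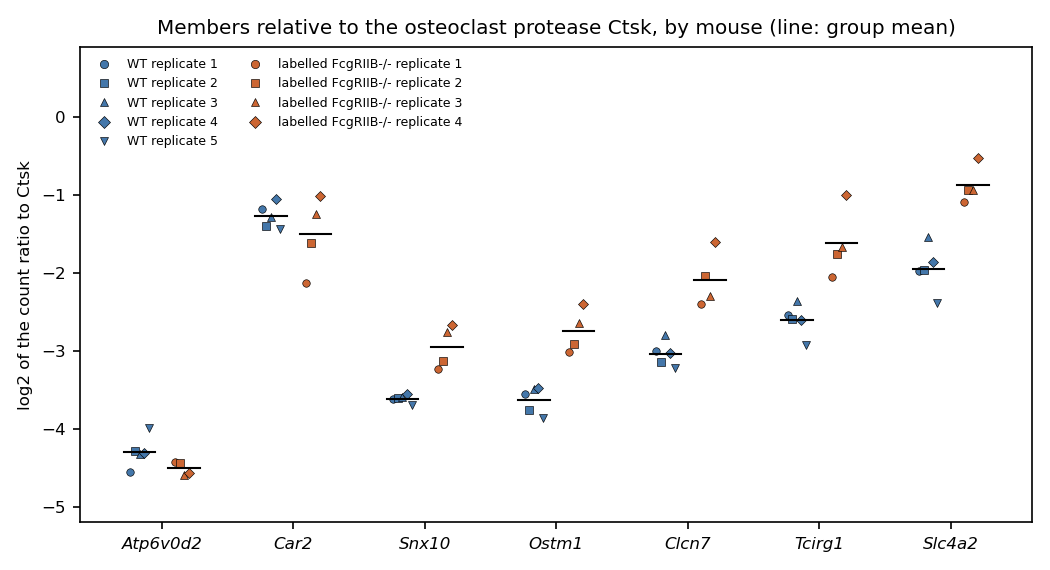
For 7 members the log2 ratio of counts to those of Ctsk in the same library is plotted for each mouse, with WT in blue, libraries labelled FcgRIIB-/- in orange and lines at group means. Atp6v0d2 and Car2 overlap between the groups, and the other 5 members are higher relative to Ctsk in all 4 libraries labelled FcgRIIB-/-.

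The shares of isoforms at each position of the enzyme were compared per length, as CPM divided by the summed exon length of the gene in kb. At the d position *Atp6v0d2* made up 12.6, 15.9, 12.3, 13.2 and 19.7% of the 2 isoforms in WT replicates 1 to 5. In replicates 1 to 4 labelled FcgRIIB-/- it made up 8.02, 6.76, 6.46 and 4.93%. All WT mice were above this range. The widely expressed *Atp6v0d1* itself was at 92.4 ± 5.17 (SD, n = 5) and 96.0 ± 2.70 (SD, n = 4) CPM and did not pass (log2 fold change 0.06, SE 0.06). The log2 ratio of *Atp6v0d2* to *Atp6v0d1* counts fell by 1.30 (two-sided exact permutation p = 0.00794, the smallest that these group sizes can give, 0.0357 after adjustment over the 9 isoform ratios). With any of the 9 mice left out the smallest possible p is larger, and the adjusted exact permutation p lay between 0.0536 and 0.0857. This ratio mostly repeats the fall of *Atp6v0d2* itself, and the isoform ratios were chosen with earlier results of these data known.

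At the a position *Tcirg1* held 37.1 ± 0.795% of the total in WT (SD, n = 5), against 37.6 ± 3.69% in libraries labelled FcgRIIB-/- (SD, n = 4). *Atp6v0a1*, the isoform best known from nerve, held the largest share, 46.2 ± 3.91% and 51.2 ± 2.47%. The difference in the log2 ratio of *Tcirg1* to *Atp6v0a1* was -0.14 (exact permutation p = 0.286, adjusted p = 0.367). *Atp6v0a2* (chromosome 5 from 124629052 to 124724455), the isoform associated with the Golgi and endosomes, was at 42.6, 45.1, 40.2, 39.4 and 49.0 CPM in WT replicates 1 to 5 and at 30.7, 33.6, 28.7 and 27.3 CPM in replicates 1 to 4 labelled FcgRIIB-/-. The groups were apart, with a log2 fold change of -0.52 (SE 0.09, edgeR adjusted p = 0.00187), which passed with any mouse left out. It was the sole widely expressed subunit that fell. The log2 ratio of *Tcirg1* to *Atp6v0a2* accordingly rose by 0.48 (exact permutation p = 0.00794, adjusted p = 0.0357), and here too the adjusted p was between 0.0536 and 0.0857 with any mouse left out.

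**Figure D4:**
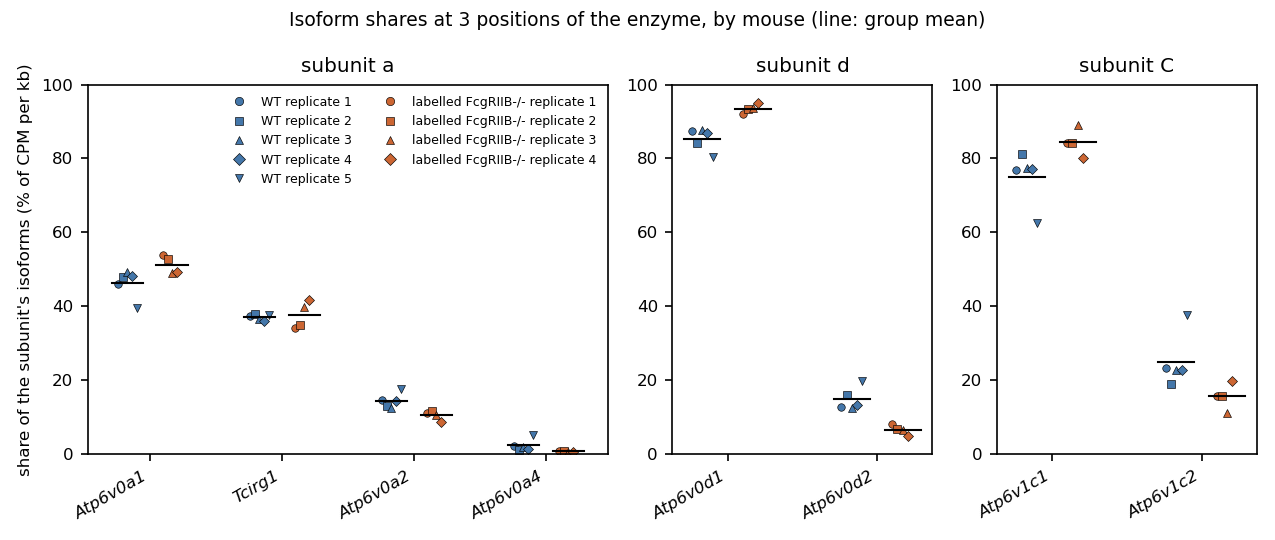
The share of each isoform at the a, d and C positions, as a percentage of the summed CPM per kb of that position, is plotted for each mouse with lines at group means. Atp6v0d2 lies between 12.3 and 19.7% in WT and between 4.93 and 8.02% in the libraries labelled FcgRIIB-/-, and Tcirg1 holds 37.1 and 37.6% on average.

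2 isoforms of epithelia and kidney also fell. *Atp6v0a4* (chromosome 6 from 38048483 to 38124586), the a4 isoform of acid-secreting kidney cells, was at 4.35, 2.49, 4.39, 2.86 and 10.8 CPM in WT replicates 1 to 5 and at 1.86, 1.89, 1.27 and 1.11 CPM in replicates 1 to 4 labelled FcgRIIB-/-. The groups did not overlap, and WT replicate 5 was far above the other WT mice. The log2 fold change was -1.69 (SE 0.43, edgeR adjusted p = 0.0135), and it passed with any mouse left out, at values between -1.84 and -1.17. It rested on 22 to 53 counts in the libraries labelled FcgRIIB-/-. *Atp6v1c2* (chromosome 12 from 17284721 to 17325386), the C2 isoform of lung and kidney, was at 7.03, 6.90, 8.48, 7.49 and 14.0 CPM in WT replicates 1 to 5 and at 5.26, 5.22, 3.90 and 6.89 CPM in replicates 1 to 4 labelled FcgRIIB-/-. WT replicate 5 was again highest, and WT replicate 2 and replicate 4 of the second group were nearly level. Its log2 fold change was -0.72 (SE 0.24, edgeR adjusted p = 0.0394), and it passed in 3 of the 9 fits that each left out a mouse. It did not pass without WT replicates 3 (adjusted p = 0.0631), 4 (0.0541) or 5 (log2 fold change -0.47, adjusted p = 0.0605), or without replicates 1 (0.0816), 2 (0.0803) or 3 (0.102) of the libraries labelled FcgRIIB-/-. The log2 ratio of *Atp6v0a4* to *Atp6v0a1* fell by 1.60 (exact permutation p = 0.0159, adjusted p = 0.0476, and 0.0643 to 0.121 with any mouse left out), and that of *Atp6v1c2* to *Atp6v1c1* differed by -0.84 (exact permutation p = 0.0238, adjusted p = 0.0536). Of 9 tested keratinized epithelium markers all were lower, with a sum of 12596 CPM in WT replicate 5, between 2259 and 5690 CPM in the other WT mice and between 436 and 725 CPM in the libraries labelled FcgRIIB-/-. Their part in these isoforms was not tested. *Atp6v0a4* overlaps *Tmem213* and *D630045J12Rik* in position, and *Atp6v1c2* overlaps *Pdia6*, so their counts are uncertain.

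The other tested tissue-restricted isoforms did not pass. *Atp6v1b1*, the B1 isoform of kidney, had between 12 and 28 counts in WT and between 13 and 45 in the libraries labelled FcgRIIB-/-, with a log2 fold change of 0.89 (edgeR adjusted p = 0.0617). It passed as higher without WT replicate 1 (edgeR adjusted p = 0.0488) or without replicate 4 of the other group (edgeR adjusted p = 0.0215). *Atp6v1g2*, the G2 isoform of neurons, was at 3.68 ± 0.523 (SD, n = 5) and 4.76 ± 1.28 (SD, n = 4) CPM (log2 fold change 0.36, edgeR adjusted p = 0.178). The differences in their log2 ratios to the widely expressed *Atp6v1b2* and *Atp6v1g1* were 0.95 (exact permutation p = 0.0397, adjusted p = 0.0714) and -0.01 (exact permutation p = 0.968, adjusted p = 0.968). *Atp6v1g2* overlaps *Nfkbil1* in position, so its counts are uncertain. *Atp6v1g3* and *Atp6v1fnb* had 0 counts in all mice, *Atp6v1e2*, the isoform of testis, had 2 counts in WT replicate 2 alone, and *Atp6ap1l* had at most 7 counts in any mouse. These 4 members were not tested.

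Of the 5 members that rose, 4 were V1 subunits. *Atp6v1d* (chromosome 12 from 78842982 to 78862008), which forms the central rotor, was at 93.4, 102, 110, 105 and 98.2 CPM in WT replicates 1 to 5 and at 123, 124, 143 and 136 CPM in replicates 1 to 4 labelled FcgRIIB-/-. *Atp6v1f* (chromosome 6 from 29467783 to 29470509), also of the rotor, was at 50.5, 46.9, 51.2, 49.8 and 47.1 CPM in WT and at 61.6, 55.7, 64.7 and 68.9 CPM in the other group. *Atp6v1g1* (chromosome 4 from 63544765 to 63550701), which builds the peripheral stalks with subunit E, was at 94.5, 98.9, 103, 97.8 and 92.6 CPM in WT and at 117, 114, 137 and 129 CPM in the other group. In all 3 genes every mouse labelled FcgRIIB-/- was above every WT mouse. Their log2 fold changes were 0.37, 0.35 and 0.36, each with a SE of 0.07, and the adjusted p was 0.00368, 0.00401 and 0.00369 from edgeR's quasi-likelihood test and at most 0.0124 with any mouse left out.

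*Atp6v1e1* (chromosome 6 from 120795244 to 120822698) was at 158, 164, 179, 170.2 and 166 CPM in WT replicates 1 to 5 and at 201, 179, 222 and 199.8 CPM in replicates 1 to 4 labelled FcgRIIB-/-. WT replicate 3 and replicate 2 of the second group met at the same level. The log2 fold change was 0.26 (SE 0.07, edgeR adjusted p = 0.0231), and without replicate 3 of the libraries labelled FcgRIIB-/- the adjusted p was 0.0529. *Atp6v1g1* overlaps the long noncoding *Gm38592* in position and *Atp6v1e1* the pseudogene *Gm19245*, so reads may be shared. The other V1 subunits did not pass. They were the catalytic *Atp6v1a* (log2 fold change -0.17), the nucleotide-binding *Atp6v1b2* (-0.10), *Atp6v1c1* (0.14) and *Atp6v1h* (0.17), the last 2 of which act at the junction with V0.

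Of the 7 V0 subunits with wide expression 1 was higher and 1, *Atp6v0a2*, was lower. The higher gene was *Atp6v0e2* (chromosome 6 from 48537569 to 48541801), a second form of the small e subunit, at 15.6, 14.6, 18.1, 16.7 and 13.9 CPM in WT replicates 1 to 5 and at 21.3, 20.2, 16.4 and 22.8 CPM in replicates 1 to 4 labelled FcgRIIB-/-. Replicate 3 of the second group lay within the WT range, and the other 3 lay above it. The log2 fold change was 0.36 (SE 0.11, edgeR adjusted p = 0.0331), and it did not pass without WT replicate 2 (adjusted p = 0.0510) or without replicates 1 (0.0810), 2 (0.0641) or 4 (0.0862) of the libraries labelled FcgRIIB-/-. The log2 ratio of *Atp6v0e2* to *Atp6v0e* differed by 0.47 (exact permutation p = 0.0556, adjusted p = 0.0833). *Atp6v0c*, which forms the proton-carrying ring, was at 42.9 ± 3.22 (SD, n = 5) and 42.8 ± 4.24 (SD, n = 4) CPM, and shares sequence with the pseudogene *Atp6v0c-ps2* (9 to 22 counts per mouse), so that the split of their reads is uncertain. The pseudogene had a log2 fold change of 0.51 (SE 0.29, edgeR adjusted p = 0.194), and the sign of *Atp6v0c* turned with other normalizations. *Atp6v0a1*, *Atp6v0b*, *Atp6v0d1*, *Atp6v0e* and the accessory subunits *Atp6ap1* and *Atp6ap2*, which help the pump assemble, had log2 fold changes between -0.12 and 0.08 and did not pass.

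Sums of muscle markers and of markers of enamel-forming cells were higher in the libraries labelled FcgRIIB-/-, as were 4 of the 8 widely expressed V1 subunits. Of 10 skeletal muscle markers 5 were higher and none was lower, with a sum between 6674 and 15637 CPM in WT and between 15731 and 27370 CPM in the libraries labelled FcgRIIB-/-. Of 7 ameloblast markers 5 were higher and none was lower, with sums between 9528 and 25812 CPM and between 29153 and 50412 CPM. The muscle sums nearly met, at 15637 CPM in WT replicate 1 and 15731 CPM in replicate 2 labelled FcgRIIB-/-. WT replicate 1 had the lowest *Atp6v1d* level of all mice (93.4 CPM). WT replicate 3 had both the highest ameloblast sum and the highest *Atp6v1d* level (110 CPM) of the WT mice. Replicate 3 labelled FcgRIIB-/-, at 16158 CPM of muscle and 39398 CPM of ameloblast markers, had the highest *Atp6v1d* level (143 CPM). Each marker of both lists was detected, and their part in the V1 subunits was not tested. Of the remaining lists, 4 of 10 macrophage, 9 of 10 B cell, 1 of 7 T cell and all 6 megakaryocyte markers were lower and none was higher. Among all tested genes 14.0% were higher and 19.3% were lower, and the T cell share of 14.3% did not exceed this background. The sum of macrophage markers was between 382 and 572 CPM in WT and between 329 and 415 CPM in the libraries labelled FcgRIIB-/-, and that of B cell markers was between 46.7 and 112 CPM and between 14.0 and 33.1 CPM. Osteoblast and osteocyte markers had 4 of 11 lower with a median log2 fold change of 0.06, and none of 7 nerve markers passed. T cell markers summed to between 9.83 and 54.3 CPM in WT and between 6.47 and 10.8 CPM in the other group, and megakaryocyte markers to between 256 and 339 CPM and between 78.7 and 133 CPM. The T cell sum of 54.3 CPM was that of WT replicate 2, and the next WT mouse was at 18.3 CPM. Of 6 salivary and ionocyte markers 1 could be tested and did not pass, and their sum was 67.7 CPM in replicate 4 of the libraries labelled FcgRIIB-/- and at most 5.94 CPM in any other mouse.

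Between genes, levels were compared per length in WT. *Atp6v1g1* (85.7 ± 3.48 CPM per kb, SD, n = 5) and *Car2* (80.3 ± 5.58) were highest, followed by *Atp6ap1* (68.1 ± 2.74), *Atp6v0d1* (51.5 ± 2.88) and *Atp6v0b* (50.3 ± 1.79). The last pair differed by less than the spread between mice. *Tcirg1* was at 16.8 ± 1.82 CPM per kb, between *Atp6v0a1* (20.9 ± 3.30) and *Slc4a2* (14.7 ± 2.17), and *Atp6v0d2* was at 8.99 ± 2.41. In the libraries labelled FcgRIIB-/- *Atp6v1g1* (110 ± 9.34 CPM per kb, SD, n = 4) stayed highest, *Car2* stood at 33.8 ± 6.77 and *Atp6v0d2* at 3.75 ± 0.742. Exon lengths include untranslated parts that a given mandible transcript may lack. That bears on this order and on the size of the isoform shares, and not on the comparison of a single gene between groups.

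MITF and TFEB, transcription factors that drive osteoclast and lysosomal genes, bind a motif called the M-box. It was searched here only as TCACGTG on either strand, a form that contains the E-box CACGTG. RefSeq promoters (GRCm38.p6, 250 bases before to 50 after a start site) were at hand for 24 of the 33 members, 7 of them past the threshold. An M-box was found in the promoters of 5 members, against 4.29% of 27025 genes, and the same 5 members held the E-box, against 8.09% of genes. None of these 5 was among the members that rose or fell, but *Atp6v0d2*, *Car2*, *Atp6v0a2* and *Atp6v1g1* had no entry and were not searched. Their windows are shown because they carry the match in members whose level did not pass the test, with M-boxes in capitals, 5′ to 3′ on the strand of the gene.
*Atp6v0b*, chr4:117887317-117887391, minus strand: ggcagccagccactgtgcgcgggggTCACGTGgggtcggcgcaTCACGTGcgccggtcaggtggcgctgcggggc
*Atp6v0d1*, chr8:105566036-105566093, minus strand: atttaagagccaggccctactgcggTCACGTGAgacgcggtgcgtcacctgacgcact
*Atp6v0e*, chr17:26676373-26676430, plus strand: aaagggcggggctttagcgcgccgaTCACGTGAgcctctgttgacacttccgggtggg
*Atp6v1a*, chr16:44139359-44139416, minus strand: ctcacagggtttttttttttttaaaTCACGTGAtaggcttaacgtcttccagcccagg
*Clcn7*, chr17:25133350-25133429, plus strand: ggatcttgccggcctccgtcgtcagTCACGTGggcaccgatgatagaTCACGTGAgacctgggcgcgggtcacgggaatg

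The letters TCACGTGA hold an M-box on each strand. Counted by the E-box, which reads the same on both strands, *Atp6v0b* and *Clcn7* held 2 sites each and the other 3 genes held 1 each. An AP-1 site (TGANTCA) was found in 2 of the 24 members, *Atp6v0a1* and *Snx10*, against 8.97% of genes, and the core of a PU.1 site (GAGGAA) in 8 of the 24, against 31.3% of genes. Both strands were searched, and a match is a description of the sequence only. The factors themselves were measured. *Mitf* was at 15.0 ± 1.18 (SD, n = 5) and 15.6 ± 2.18 (SD, n = 4) CPM (log2 fold change 0.06, SE 0.11), and *Tfeb* at 29.9 ± 3.13 and 37.7 ± 6.64 CPM (log2 fold change 0.34, edgeR adjusted p = 0.0531). *Nfatc1*, the main transcription factor of osteoclast differentiation, fell by 0.53 on the log2 scale (adjusted p = 0.00885) and *Spi1*, which encodes PU.1, fell by 0.76 (adjusted p = 0.0208, both from edgeR). These were the 2 of 6 transcription factors that fell, and none rose. The share past the threshold, 33.3%, was the same as among all tested genes.

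Other genes of acidification and of lysosomes were read from lists. Of 12 tested genes that assemble or regulate the V-ATPase 1 was higher and 3 were lower, with a median log2 fold change of 0.03. This is 33.3% of the list, the same share as among all tested genes. The assembly factor *Tmem199* rose by 0.37 on the log2 scale (adjusted p = 0.0168), *Ncoa7*, which binds the V1 sector, fell by 0.43 (adjusted p = 0.0194) and *Wdr7*, of the complex that rejoins V1 with V0, fell by 0.36 (adjusted p = 0.00829, all from edgeR). *Oxr1*, a relative of *Ncoa7*, was the third lower gene. Of 25 lysosomal hydrolases and membrane proteins 7 were lower and none was higher, with a median of -0.09. The share past the threshold was 28% here and 33.3% among all tested genes, of which 19.3% were lower. Among them *Sgsh*, an enzyme that degrades heparan sulfate, fell from 18.6 ± 1.67 (SD, n = 5) to 12.6 ± 2.14 (SD, n = 4) CPM (log2 fold change -0.56, edgeR adjusted p = 0.00639).

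Of 14 other carbonic anhydrases, chloride-proton exchangers and acid transporters 4 were higher and 4 were lower, 57.1% of the list against 33.3% of all tested genes, with a median log2 fold change of -0.07. *Car1*, the carbonic anhydrase of red cells, fell from 27.3 ± 3.64 (SD, n = 5) to 1.23 ± 1.33 (SD, n = 4) CPM (log2 fold change -4.54, edgeR adjusted p = 2.30e-04). *Clcn5*, an exchanger of endosomes, fell from 5.02 ± 1.27 to 2.13 ± 0.815 CPM (log2 fold change -1.22, edgeR adjusted p = 0.00949). The membrane-bound *Car4* rose from 1.448 ± 0.507 to 5.32 ± 1.12 CPM (log2 fold change 1.87, adjusted p = 0.00106) and *Car14* rose from 9.01 ± 2.51 to 18.7 ± 4.77 CPM (log2 fold change 1.06, adjusted p = 0.00659, both from edgeR). Carbonic anhydrases thus moved in both directions. *Acp5*, the tartrate-resistant acid phosphatase of osteoclasts, was at 219 ± 36.6 and 103 ± 34.0 CPM (log2 fold change -1.09).

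In 9 of the 29 tested members the ranges of both groups were apart, against 29.6% of all tested genes. Of the 15 widely expressed subunits 5 were higher and 1 was lower, with a median log2 fold change of 0.08. Together these are 40% of the subunits, against 33.3% of all tested genes past the threshold in either direction.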

How the data were processed

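Poly(A) RNA of 9 mandibles was sequenced by the authors as 75 bp single-end stranded libraries. Per the submitters' processing notes and methods, Trim Galore was used for trimming, HISAT 02.1.0 for alignment (genome build mm10) and featureCounts for counting, and the deposited table holds raw counts per gene. The annotation and the strand setting are not given in the sources used here. The table has 27179 rows, 1030 of them without a symbol (0.0852 to 0.11% of counts), which were kept, and 1 further column of values, which matches no sample label and was not used. Counts were compared with edgeR 4.0.16 in R 4.3.3, with filterByExpr (minimum count 10), TMM, the quasi-likelihood test of genotype without covariates and Benjamini-Hochberg adjustment over all 16329 tested genes at 0.05. Standard errors (SE) were derived from the fold change and the F statistic of that test. Ratios of counts used 0.5 added to each count and a two-sided exact permutation over 126 splits of the mice. DESeq2 1.42.0, other normalizations and filters, a replicate block and leaving out each mouse were alternatives. The test was tested on simulated counts. The share of false calls there lay above the threshold of 0.05 in edgeR and further above it in DESeq2. Exon lengths are from GENCODE M21 (GRCm38) and coordinates and promoters from RefSeq (GRCm38.p6). Members, lists and ratios were chosen with earlier results of these data known. Besides all members, the text names in each pathway list the 2 largest rises and the 2 largest falls past the threshold, and *Ctsk*, *Acp5*, *Nfatc1*, *Mitf*, *Tfeb* and *Fcgr2b*; *Oxr1* was named after its values were seen. One gene that this rule selects is not reported here. Replicates are separate mice, and no pair of libraries was near-identical (chi-square per degree of freedom at least 12.5). Depth was 21453880 to 28991631 counts per mouse, so members under about 1 CPM rest on few reads.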

Additional observations from a re-analysis of the deposited data

Results flagged for a closer look

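In 6 of 58 groups of libraries tested, where chance flags about 1 in 20, a mouse lay far from the others of its group. WT replicate 5 was at 10.8 CPM of *Atp6v0a4* and at 14.0 CPM of *Atp6v1c2*, above all other WT mice. WT replicate 2 was at 40.01 CPM of *Ostm1*, also above. Among the libraries labelled FcgRIIB-/-, replicate 3 was at 80.9 CPM of *Atp6v1c1* and at 128.5 CPM of *Atp6ap2*, and replicate 2 was at 211 CPM of *Atp6ap1*, each above the other 3.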

How the results depend on the processing

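The numbers of members past the threshold were 5 higher and 6 lower with RLE or upper-quartile normalization, with no filter, with a mean of at least 10 counts and in DESeq2. At an adjusted p under 0.01 they were 3 and 3. With each mouse left out in turn they were between 4 and 6 in both directions. Replicate numbers belong to different animals, and deviations of same-numbered mice from their group means correlated between -0.114 and 0.0969, so the numbers do not pair them. With a replicate block 4 members were higher and 4 lower, *Atp6v1c2*, *Snx10* and *Atp6v0e2* no longer passing (adjusted p = 0.0850, 0.0775 and 0.122 from edgeR). The sign of *Atp6v0c* turned with RLE (0.012), upper-quartile (0.017), DESeq2 (0.011) and the block (0.034), and that of *Slc4a2* with the block (-0.017). With a mouse left out the log2 fold change ranged from -0.062 to 0.060 for *Atp6v0c*, from -0.147 to 0.036 for *Tcirg1*, from -0.0042 to 0.104 for *Slc4a2* and from -0.098 to 0.0049 for *Atp6ap2*, and the difference in the log2 ratio of *Atp6v1g2* to *Atp6v1g1* from -0.154 to 0.174. The cause was not tested. With fewer mice the smallest exact p is larger, and the ratios of *Tcirg1* to *Atp6v0a2* (0.336 to 0.565) and of *Atp6v0d2* to *Atp6v0d1* (-1.41 to -1.16) then had adjusted exact permutation p between 0.0536 and 0.0857, and that of *Atp6v0a4* to *Atp6v0a1* (-1.86 to -1.19) did not pass either. The ratio of *Atp6v0d2* to *Ctsk* ranged from -0.276 to -0.136 and passed as lower without WT replicate 1 (adjusted exact permutation p = 0.0333). No ratio changed its side of the threshold with 2 added to each count.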
